A study of Mus musculus with 6 samples.

Results

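Pvalb, Calb1, Calb2, Spp1, Slc17a7, Slc17a6, Ldhb and Heg1 are 8 genes that are used as markers of proprioceptors and other myelinated neurons of the mouse dorsal root ganglion (DRG). They were taken by gene identifier from a table of 47937 rows of read counts, and all 8 were found and passed the filter on low counts. The table describes total RNA of whole DRGs of mice about 2 months old on the C57BL/6 strain, with 3 control and 3 mutant libraries. The mutants are Tlx3f/f;SNS-cre and are called Tlx3cko here. They carry a floxed Tlx3, a homeobox transcription factor gene, which is removed by a Cre recombinase driven by the promoter of the sodium channel Nav1.8. The controls are labelled wild type. Behavioural tests of the same study used Tlx3f/f littermates without Cre as controls, and whether the sequenced controls carried floxed alleles is not stated. The Nav1.8 promoter is active mainly in nociceptors, the pain-sensing neurons, and also in some myelinated neurons, so the cells in which Tlx3 was deleted are only in part those that these markers label. RNA of whole ganglia holds all DRG cells together, and in such samples more cells of a type and more RNA per cell cannot be told apart.

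Proprioceptors carry signals of muscle length and tension from muscle spindles and tendon organs to the spinal cord, and the touch neurons known as Aβ low-threshold mechanoreceptors carry signals from the skin. Both have large cell bodies and thick myelinated axons that conduct fast. The 8 genes have different roles in such cells. Pvalb, Calb1 and Calb2 encode parvalbumin, calbindin and calretinin, cytoplasmic proteins that bind calcium through EF-hand motifs. Slc17a7 and Slc17a6 encode VGLUT1 and VGLUT2, which load glutamate into synaptic vesicles. Spp1 encodes the secreted glycoprotein osteopontin, Ldhb the B subunit of lactate dehydrogenase, and Heg1 a transmembrane protein that binds the CCM complex at cell junctions. None of the 8 is expressed in myelinated neurons alone. Pvalb is also abundant in fast skeletal muscle, Heg1 in endothelium, and Spp1 in macrophages and bone.

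The libraries held between 11458299 and 18775628 counts. Values are given as normalized counts, that is, counts scaled by TMM factors to the mean effective library size of 14974185. The targeted gene, Tlx3, averaged 2057 ± 173 normalized counts over the controls (SD, n = 3) against 1495 ± 141 over the mutants, without overlap (log2 fold change -0.46, edgeR adjusted p = 0.0122). Tlx3 missed the threshold when control replicate 2 was omitted (edgeR adjusted p = 0.0606), and likewise for the mutant replicates 2 (0.0910) and 3 (0.0706). The sexes were not balanced, since control replicates 1 and 2 had 591 and 493 counts on the female-specific Xist and 0 on the Y-linked Ddx3y, and the other 4 libraries had at most 2 on Xist and at least 273 on Ddx3y. With sex as a second term, which sets control replicate 3 alone against the 3 mutants, the log2 fold change of Tlx3 was -0.38. Of 5 identity genes of DRG sensory neurons (Avil, Isl1, Pou4f1, Drgx and Prdm12) 0 passed the threshold, and all were detected in every library. Their summed level ran from 26481 to 27199 normalized counts over the controls and from 24674 to 25988 over the mutants.

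Per kilobase of exon, the control level was highest for Ldhb, at 2618 ± 237 normalized counts per kilobase (SD, n = 3). Pvalb came next with 898 ± 142 and Slc17a7 with 872 ± 97.7, and the ranges of these 2 genes overlapped in control libraries. Slc17a6 followed with 541 ± 56.3, Spp1 with 459 ± 31.6, Calb1 with 126 ± 17.9, Calb2 with 59.6 ± 3.03 and Heg1 with 27.6 ± 4.50. No other neighbours in this order overlapped in control. The order by mean level changed in Tlx3cko DRGs only between Slc17a6 and Spp1, at 528 ± 25.5 and 559 ± 20.9, whose ranges overlapped there. Pvalb and Slc17a7, by contrast, no longer overlapped in Tlx3cko, at 1349 ± 150 and 987 ± 44.6. Calretinin transcripts were scarce, with between 98 and 162 counts per library.

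To determine whether markers of myelinated neurons differed after loss of Tlx3 from Nav1.8 neurons, the 8 genes were read from a test across all 20006 genes with at least 10 counts in total (edgeR's quasi-likelihood test, adjusted p under 0.05 over all genes). Pvalb and Calb1 rose in Tlx3cko DRGs, to 1.502 and 1.417 times their control means. These 2 of 8 genes passed the threshold and 0 fell, beside 4.25% of all genes tested that passed in either direction, 1.69% that were higher and 2.56% that were lower. All 8 markers had means above 50 normalized counts. Of the 13373 genes with a mean of at least 50, a larger share passed, 318 as higher and 440 as lower. In 4 of 8 genes (Pvalb, Calb1, Calb2 and Spp1) every Tlx3cko value lay above every control value, which held for 8.87% of all genes, and 19.7% did not overlap in either direction. The same 4 genes had an unadjusted p under 0.05, as did 14.5% of all genes. The median log2 fold change of the 8 genes was 0.28, and that of all genes tested was -0.0036.

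**Figure D1:**
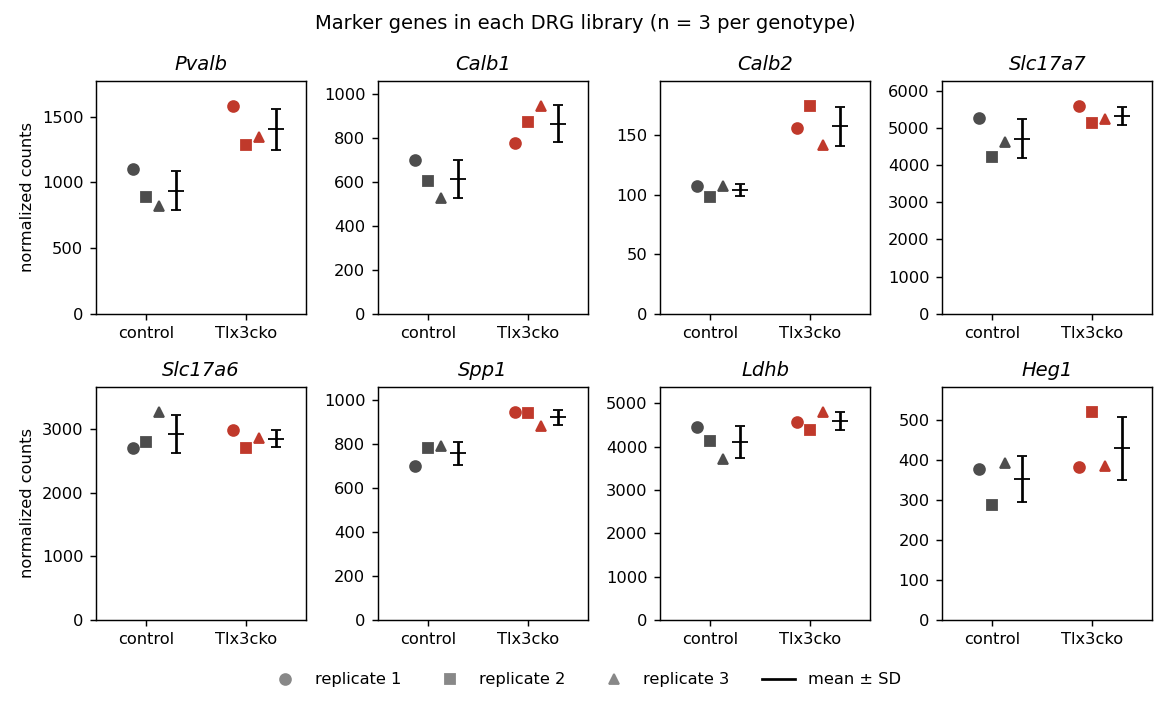
Normalized counts of the 8 marker genes (vertical axes, starting at 0) in the 3 control (grey) and 3 Tlx3cko (red) libraries, with a symbol for each replicate and the mean ± SD in black. The groups are separate for Pvalb, Calb1, Calb2 and Spp1, and overlap for the other 4 genes.

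**Figure D2:**
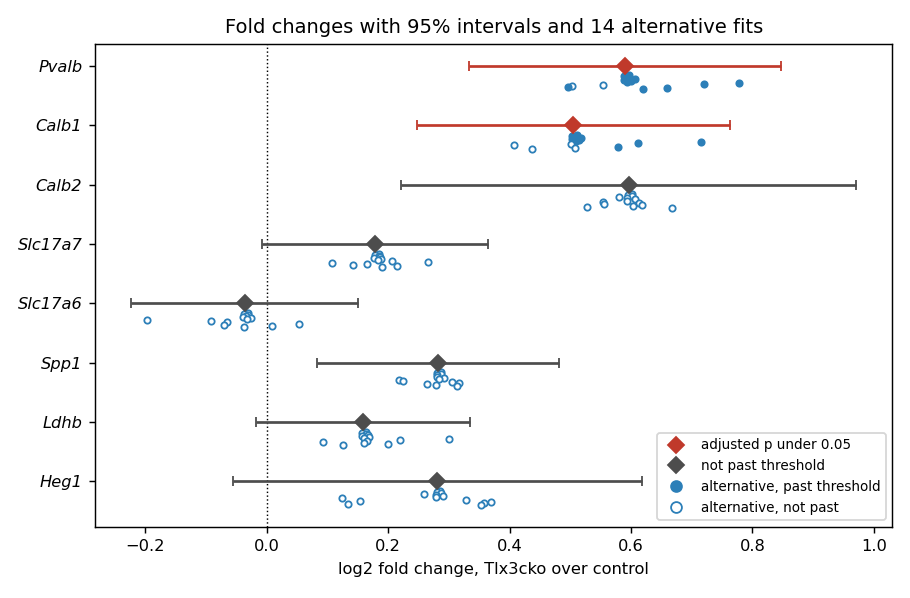
Log2 fold changes of Tlx3cko over control (diamonds) with 95% intervals (bars), and the values under 14 alternative fits (circles). Red diamonds and filled circles passed the threshold, and the dotted line marks no difference. Pvalb and Calb1 passed, and the interval of Slc17a6 is centred near 0.

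Pvalb (ENSMUSG00000005716, chr15:78191114-78206400, minus strand, GRCm38) was counted 1020, 887 and 1027 times in control replicates 1, 2 and 3, and 1643, 979 and 1369 times in the Tlx3cko replicates. After normalization the controls stood at 1101, 885 and 819 and the mutants at 1581, 1285 and 1347. The highest control, replicate 1, lay below the lowest Tlx3cko library, replicate 2. The log2 fold change was 0.59 (standard error 0.12, 95% interval 0.33 to 0.85), with an edgeR adjusted p of 0.0116. When single libraries were omitted it stayed between 0.50 and 0.72. The threshold was missed without control replicate 2, at an edgeR adjusted p of 0.0592, and without control replicate 3, at 0.0557, where the range over 14 alternatives was 3.41e-07 to 0.0592. With the sex of the library as a second term, the comparison is that of control replicate 3 alone, the only male control, with the 3 mutants, and it assumes that this single library varies like the others. Its log2 fold change for Pvalb was 0.78, which is not an estimate over replicated male controls.

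Muscle transcripts were present in every library, at unequal levels. Of 12 genes of fast skeletal muscle 1 passed the threshold as higher, the myosin gene Myh4, and 0 as lower. Myh4 had a log2 fold change of 2.87 (edgeR adjusted p = 0.0102, but 0.0611 without control replicate 2 and 0.0639 in DESeq2). The median log2 fold change of the 12 genes was 1.13, with a range of -1.86 to 2.87. Of the 12, 10 were above 0, beside 9872 of all 20006 genes, and 6 had an unadjusted edgeR p under 0.05, beside 14.5% of all genes. Their summed level was 3514, 887 and 191 normalized counts in control replicates 1, 2 and 3, and 4534, 3742 and 2536 in Tlx3cko replicates 1, 2 and 3, with none of the 12 markers at 0 in any library. The 3 controls had the same order by muscle transcripts as by Pvalb, whereas Tlx3cko replicate 2 had more muscle transcripts than Tlx3cko replicate 3 and less Pvalb, at 1285 against 1347. By this sum, control replicate 1 had more muscle transcripts than Tlx3cko replicate 3 and less Pvalb, at 1101 against 1347 normalized counts. Myh4 by itself gave another order. It stood at 235, 99.7 and 16.75 normalized counts in control replicates 1, 2 and 3, and at 1209, 859.5 and 416 in the Tlx3cko replicates, without overlap. Without control replicate 1 the log2 fold change of Pvalb was 0.72. The part of muscle RNA in the difference of Pvalb was not tested.

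**Figure D3:**
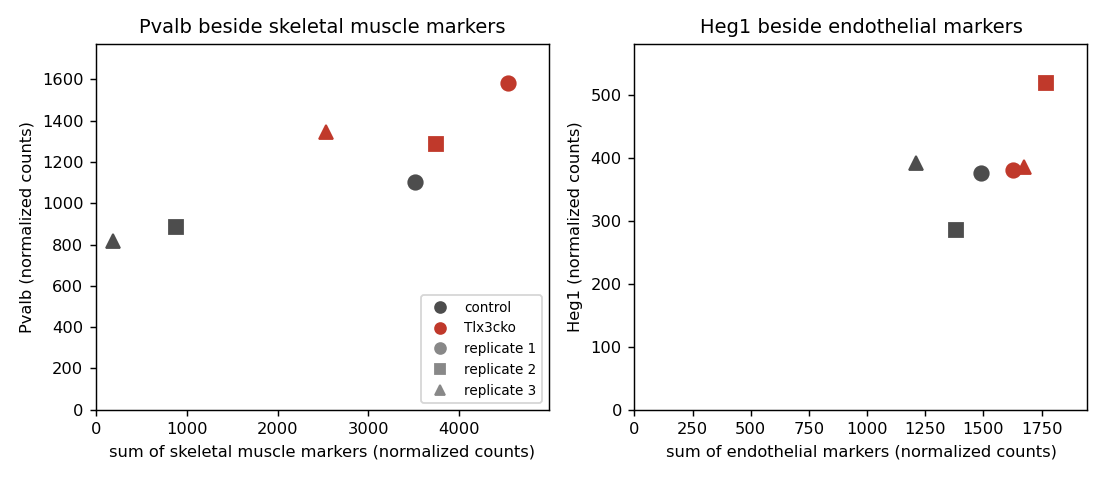
Normalized counts of Pvalb against the summed skeletal muscle markers (left) and of Heg1 against the summed endothelial markers (right), with 1 point per library, control in grey and Tlx3cko in red. Control replicate 1 has a muscle sum of 3514, above the 2536 of Tlx3cko replicate 3, and a lower Pvalb value. The endothelial sums of the genotypes do not overlap.

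The region just upstream of the start of Pvalb is printed because this gene had the larger of the 2 differences that passed, and those of Slc17a7 and Slc17a6 because their transcripts are compared below as a pair. Each line holds the 250 bases before the start of the gene, 5′ to 3′ on the strand of the gene, from RefSeq on GRCm38.p6, which has promoter windows for 6 of the 8 genes and for some genes more than 1, of which that of the outermost start is shown. Calb1 and Calb2 had none. Capitals mark TAAT on either strand, the core that many homeodomain proteins bind. The Pvalb window at chr15:78206401-78206650 holds 2 matches, on opposite strands and overlapping, and those of Slc17a7 at chr7:45163671-45163920 and Slc17a6 at chr7:51621580-51621829 hold 1 each. Of all 32841 such windows, 54.9% hold at least 1, so these matches are a description and not binding sites.
Pvalb: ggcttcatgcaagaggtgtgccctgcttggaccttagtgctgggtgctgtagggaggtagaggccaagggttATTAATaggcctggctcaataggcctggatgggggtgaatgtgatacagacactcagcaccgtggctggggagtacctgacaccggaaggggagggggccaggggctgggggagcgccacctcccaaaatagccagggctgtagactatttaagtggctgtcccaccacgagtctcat
Slc17a7: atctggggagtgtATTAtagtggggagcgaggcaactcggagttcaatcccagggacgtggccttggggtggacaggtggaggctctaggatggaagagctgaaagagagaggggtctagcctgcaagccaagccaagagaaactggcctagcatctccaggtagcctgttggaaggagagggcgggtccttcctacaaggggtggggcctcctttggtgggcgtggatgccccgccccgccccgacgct
Slc17a6: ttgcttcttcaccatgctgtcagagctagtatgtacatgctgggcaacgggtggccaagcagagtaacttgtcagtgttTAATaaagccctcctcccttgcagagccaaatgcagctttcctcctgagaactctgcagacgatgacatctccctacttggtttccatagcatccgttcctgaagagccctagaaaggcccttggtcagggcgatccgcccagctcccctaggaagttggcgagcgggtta

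Calb1 (ENSMUSG00000028222, chr4:15881264-15908064) and Calb2 (ENSMUSG00000003657, chr8:110137502-110168210) encode calcium buffers of the same EF-hand family, and both were higher in every Tlx3cko library than in any control. Calb1 was counted 648, 607 and 660 times in control replicates 1, 2 and 3, and 808, 665 and 960 times in the Tlx3cko replicates. Normalized, the controls stood at 699, 605 and 527 and the mutants at 778, 873 and 945. The gap between the groups was narrow, from control replicate 1 to Tlx3cko replicate 1. Calb1 had a log2 fold change of 0.51 (standard error 0.12, 95% interval 0.25 to 0.76) and an edgeR adjusted p of 0.0300. The difference passed the threshold in 2 of the 6 fits that left out 1 library. It did not pass without control replicate 2 (edgeR adjusted p = 0.101), control replicate 3 (0.118), Tlx3cko replicate 2 (0.103) or Tlx3cko replicate 3 (0.155), where the range over 14 alternatives was 0.000284 to 0.155. With a sex term, which again sets control replicate 3 alone against the mutants, the log2 fold change was 0.72.

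Calb2 was counted 99, 98 and 134 times in control replicates 1, 2 and 3, and 162, 133 and 144 times in the Tlx3cko replicates. After normalization the controls were tightly grouped at 104 ± 5.27 (SD, n = 3), and the Tlx3cko libraries lay at 157 ± 16.5. Its log2 fold change of 0.60 (standard error 0.17, 95% interval 0.22 to 0.97) was as large as that of Pvalb, but with an edgeR adjusted p of 0.0808 it missed the threshold, and it passed in none of the 14 alternatives. Other EF-hand genes did not move as a group. Of 14 listed relatives 12 were tested, 0 were higher and 1 fell, Hpcal1, which encodes a neuronal calcium sensor. The control mean was 2115 ± 344 normalized counts and the Tlx3cko mean 1042 ± 28.7 (log2 fold change -1.02, edgeR adjusted p = 0.000105).

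Spinal cord also expresses calbindin, calretinin and both transporters, and was looked for by 7 markers. Mog had 1 or 2 counts in each library, Olig2 0 or 1, Slc32a1 between 0 and 4, Olig1 between 0 and 5 and Slc6a5 between 0 and 3. Mobp and Aqp4, given to complete the list, were higher, with 14 to 58 and 40 to 146 counts. Their log2 fold changes were -0.12 and 0.48. The part of spinal cord in the differences of the markers was not tested. Summed over the 7, controls ranged from 84.2 to 139 normalized counts and mutants from 72.2 to 192, and 0 of the 2 markers with enough counts to be tested passed.

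Neither of the vesicular glutamate transporters passed the threshold. Slc17a7, the VGLUT1 gene of large neurons (ENSMUSG00000070570, chr7:45163949-45176142), stood at 5269, 4228 and 4613 normalized counts in control replicates 1, 2 and 3, and at 5591, 5125 and 5251 in the Tlx3cko replicates. Control replicate 1 lay within the Tlx3cko range. The log2 fold change was 0.18 (standard error 0.09, 95% interval -0.01 to 0.36, edgeR adjusted p = 0.371). It was 0.11 without control replicate 2 and 0.27 without control replicate 1, and did not pass in either fit. Slc17a6, the VGLUT2 gene that nociceptors also express (ENSMUSG00000030500, chr7:51622006-51671119), stood at 2699, 2800 and 3269 normalized counts in the controls and at 2985, 2710 and 2859 in the mutants. Here the highest value of all was that of control replicate 3. Its log2 fold change was -0.04 (standard error 0.09, 95% interval -0.22 to 0.15, edgeR adjusted p = 0.911). In fold terms this interval runs from 0.857 to 1.11, and it is that of the fit to all 6 libraries. Without control replicate 1 the log2 interval reached down to -0.29, and without control replicate 3 up to 0.23. The sign turned without control replicate 3 or without Tlx3cko replicate 2.

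Within a library, there were 1.95, 1.51 and 1.41 counts of Slc17a7 per count of Slc17a6 in control replicates 1, 2 and 3, and 1.87, 1.89 and 1.84 in the Tlx3cko replicates. The 3 Tlx3cko libraries were almost alike, whereas the controls were spread on both sides of them. The difference of the mean log2 ratios, 0.22, had p = 0.4 in an exact two-sided permutation test, in which 3 libraries against 3 cannot give less than 0.1. The difference was 0.36 without control replicate 1 and 0.12 without control replicate 3. The third vesicular transporter, Slc17a8 (VGLUT3), which marks unmyelinated touch neurons, fell, from a mean of 156 ± 61.9 normalized counts to 42.6 ± 6.85 (log2 fold change -1.88, standard error 0.30, edgeR adjusted p = 0.00276). It was the 1 gene of 11 in the list for glutamate supply and uptake to pass the threshold. The other 10, among them the glutamine synthetase gene Glul of glial cells, had log2 fold changes from -0.28 to 0.66.

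**Figure D4:**
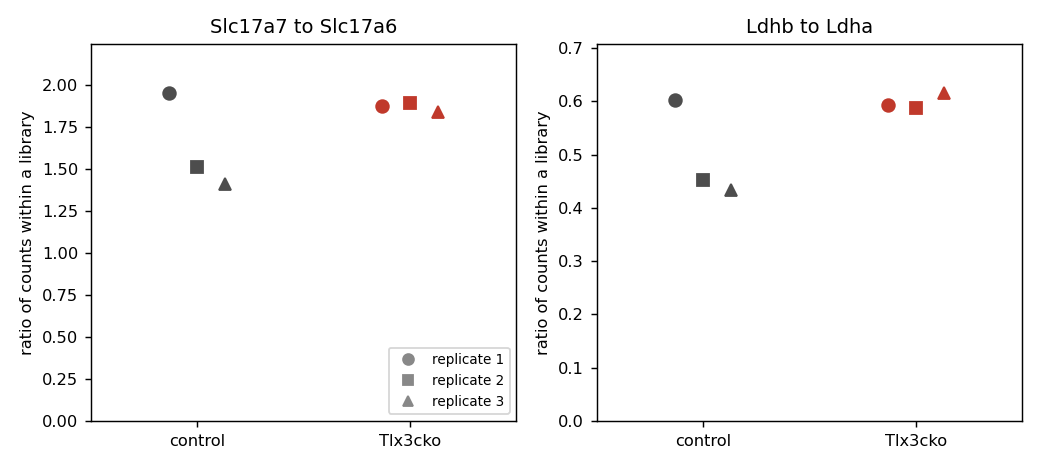
Counts of Slc17a7 per count of Slc17a6 (left) and of Ldhb per count of Ldha (right) in each library, on axes that start at 0. Control replicate 1 lies with the Tlx3cko libraries in both panels, and control replicates 2 and 3 lie lower.

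Ldhb (ENSMUSG00000030246, chr6:142490249-142507957), whose subunit prevails in oxidative cells, stood at 4465, 4141 and 3724 normalized counts in control replicates 1, 2 and 3, and at 4577, 4379 and 4800 in the Tlx3cko replicates. The ranges met between control replicate 1 and Tlx3cko replicate 2. The log2 fold change of 0.16 (standard error 0.08, 95% interval -0.02 to 0.33) did not pass (edgeR adjusted p = 0.417). It was 0.09 without control replicate 3, and 0.30 with a sex term, where that same library is the only control set against the mutants. Ldha, the gene of the other main subunit, averaged 8386 ± 900 normalized counts over the controls and 7651 ± 184 over the mutants (log2 fold change -0.13, edgeR adjusted p = 0.534). The libraries had 0.603, 0.452 and 0.434 counts of Ldhb per count of Ldha in the control replicates and 0.594, 0.588 and 0.616 in the Tlx3cko replicates. The groups overlapped through control replicate 1, and the difference of 0.29 in mean log2 ratio had p = 0.3 in the exact two-sided permutation test. Without control replicate 1 it was 0.44. Of 11 listed genes of lactate and pyruvate handling 10 were tested and 0 passed, with a median log2 fold change of 0.01. The monocarboxylate transporter gene Slc16a1 had a log2 fold change of 0.02. A processed pseudogene, Gm5514, shares at least 98% of its sequence with Ldhb over 1002 bases, and reads could have been split between them. It held between 6 and 21 counts per library, against at least 3337 on Ldhb.

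Spp1 (ENSMUSG00000029304, chr5:104435118-104441050) stood at 697, 782 and 792 normalized counts in control replicates 1, 2 and 3, and at 944, 938 and 882 in the Tlx3cko replicates. The groups did not overlap and both were tight. The log2 fold change of 0.28 (standard error 0.09, 95% interval 0.08 to 0.48) missed the threshold (edgeR adjusted p = 0.131), and it passed in none of the 14 alternatives. The osteopontin receptor gene Cd44 fell, from a mean of 2359 ± 283 normalized counts to 1459 ± 75.1 (log2 fold change -0.69, edgeR adjusted p = 0.000734), the 1 of 11 tested genes among osteopontin relatives and receptors to pass. The integrin gene Itgav had a log2 fold change of -0.03. Macrophages also make osteopontin. Their 10 markers summed to between 1634 and 2358 normalized counts in the controls and between 1195 and 1738 in the mutants, 0 of 10 passed, and Aif1 was at 0 in Tlx3cko replicate 3 alone. Of the 4 bone and cartilage markers, Bglap was at 0 and Sp7 at 0 or 1 counts in every library, Col2a1 had 8 to 43 counts and Acan 14 to 55, and their sum was 55.8 to 56.9 normalized counts in the controls and 53.9 to 89.2 in the mutants. Acan was higher in every mutant than in any control, with a log2 fold change of 0.90 (edgeR adjusted p = 0.236). The bone gene Ibsp, with 50 to 147 counts, had a log2 fold change of 0.80 (edgeR adjusted p = 0.1497) and Dmp1 0.74 (0.651). Acan, Col2a1, Ibsp and Dmp1 are named after their values were seen. The part of macrophages, bone or cartilage in the difference of Spp1 was not tested. A same-strand locus, Gm42793, covers 18.8% of the exonic bases of Spp1 and held at most 1 count per library.

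Heg1 (ENSMUSG00000075254, chr16:33684370-33771576) stood at 377, 286 and 393 normalized counts in control replicates 1, 2 and 3, and at 382, 520 and 386 in the Tlx3cko replicates. Tlx3cko replicate 2 stood above the rest and the other libraries of both genotypes overlapped. The log2 fold change was 0.28 (standard error 0.16, 95% interval -0.06 to 0.62, edgeR adjusted p = 0.468), and it was 0.13 without Tlx3cko replicate 2 and 0.15 without control replicate 2. An antisense locus, Gm15657, overlaps 2.498% of its exonic bases and was at 0 counts in every library. Of 9 partners tested with it 0 passed, and the CCM genes Krit1, Ccm2 and Pdcd10 had log2 fold changes of 0.23, 0.24 and -0.14. Endothelial transcripts were higher alongside, at a sum of 1210 to 1492 normalized counts in the controls and 1626 to 1770 in the mutants. Of the 9 endothelial markers 1 rose, Pecam1 (log2 fold change 0.66, edgeR adjusted p = 0.0203), 0 fell, and none was at 0. Pecam1 missed the threshold when control replicate 3 was omitted (edgeR adjusted p = 0.0823), and likewise for the mutant replicates 2 (0.0991) and 3 (0.0952). The part of endothelium in the difference of Heg1 was not tested.

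Among 5 further proprioceptor genes, Whrn rose and the other 4 did not pass. Whrn, which encodes the scaffold protein whirlin, was counted 721, 650 and 880 times in control replicates 1, 2 and 3, and 3271, 2660 and 3341 times in the Tlx3cko replicates. Its log2 fold change of 2.22 (standard error 0.09, edgeR adjusted p = 2.6e-08) passed in all 14 alternatives and lay above those of all 8 markers. The transcription factor genes Runx3 and Etv1, which proprioceptors need for their identity and connections, had log2 fold changes of 0.19 and -0.36. Ntrk3, the receptor gene for neurotrophin-3, had 0.27, and Esrrg, given to complete the list, 0.06. The 95% interval was -0.68 to -0.04 for Etv1 and 0.02 to 0.51 for Ntrk3. Etv1 was lower in all 14 alternatives and passed in 2, and Ntrk3 was higher in all 14 and passed in 2. Runx3 and Esrrg passed in 0. The list had a median of 0.19.

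Of 19 other genes of myelinated neurons 5 rose and 0 fell, with a median log2 fold change of 0.30. Asic1, an acid-sensing channel gene, rose most, from a mean of 1396 ± 106 normalized counts to 5744 ± 343 (log2 fold change 2.04, edgeR adjusted p = 2.6e-08). The neurofilament genes Nefm and Nefh, whose products fill thick axons, had log2 fold changes of 0.40 and 0.36, and Cntnap2, a gene of the juxtaparanode beside the node of Ranvier, had 0.39. The remaining gene, Nefl, is named after its value was seen, with 0.23. Asic1 passed in all 14 alternatives, Nefm and Nefh each in 13, Cntnap2 in 8 and Nefl in 7. Of the 6 fits that left out a library, Cntnap2 passed only in that without control replicate 1 and Nefl only in that without control replicate 3, with edgeR adjusted p values of up to 0.144 and 0.312 over the 14 alternatives. The 14 genes that did not pass, among them the axonal channel genes Scn1a, Scn8a and Kcna1, had log2 fold changes from -0.18 to 0.53.

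For comparison, of 11 genes of unmyelinated neurons 4 rose and 5 fell, with a median log2 fold change of -0.12 and a range of -2.91 to 1.21. The genes that rose included Trpv1, Calca and Scn10a, the Nav1.8 gene itself. Those that fell were Th, Mrgprd, Gfra2 and Scn11a, and also P2rx3, which is named after its value was seen. The values of the 8 myelinated markers ranged from -0.04 to 0.60. Pan-neuronal genes had a median of 0.13, with Map2 and Gap43 higher and Syt1 lower among 9. Syt1 missed the threshold without control replicate 2 (edgeR adjusted p = 0.0727), control replicate 3 (0.0838), Tlx3cko replicate 2 (0.107) or Tlx3cko replicate 3 (0.0903). Gap43 missed it without control replicate 3 (edgeR adjusted p = 0.0509), and Map2 passed in 13 of the 14 alternatives. The 9 summed to between 128889 and 136099 normalized counts in the controls and between 135207 and 149110 in the mutants. Markers of myelinating Schwann cells, which wrap these axons, had a median of 0.15 with 0 of 8 past the threshold, and satellite glia markers 0.07 with 0 of 5. Of the 5 blood markers 0 passed, with a median of -0.32.

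**Figure D5:**
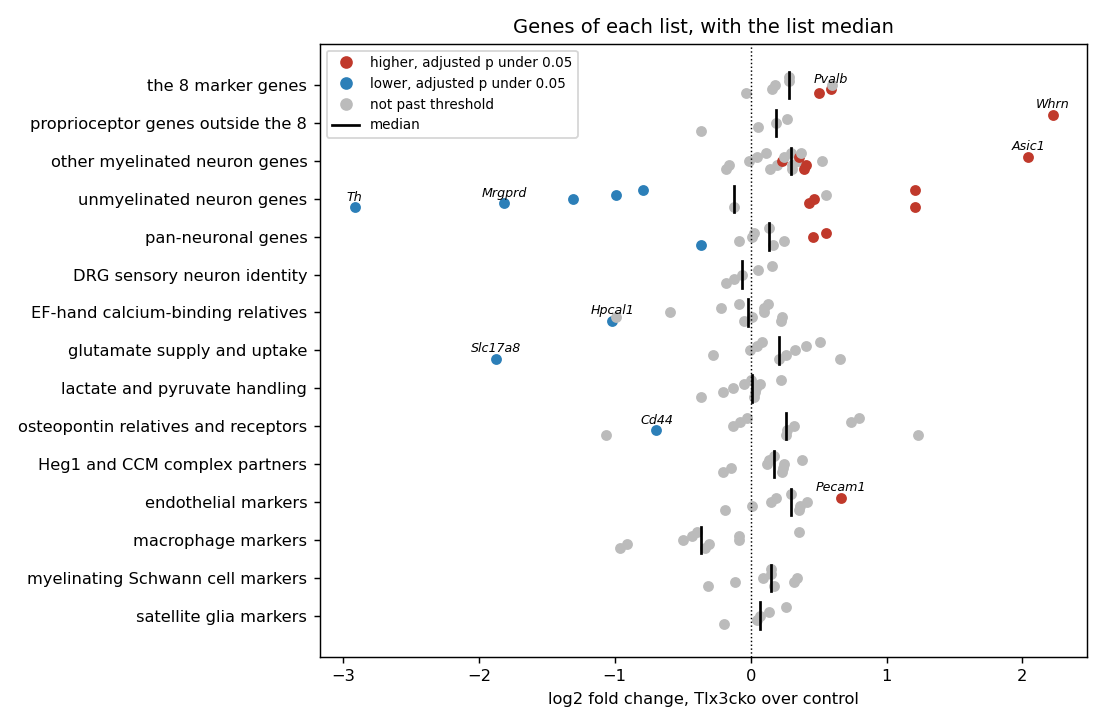
Log2 fold changes of Tlx3cko over control for the tested genes of each list shown (points), with the list median (black bar). The lists for skeletal muscle (median 1.13, with Myh4 at 2.87), spinal cord, bone and cartilage, and blood are not drawn. Red points were higher and blue points lower past the threshold, and grey points did not pass. The 8 marker genes lie between -0.04 and 0.60, and Whrn and Asic1 lie beyond 2.

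Over the 6 libraries, the gene closest to each marker was sought among 13372 other genes whose mean level reached 50 normalized counts, by the root mean square distance of log2 values centred on their mean. Pcp4l1 lay closest to Pvalb, at 0.0755 log2 units, against a spread of 0.335 for Pvalb itself, and it also rose (log2 fold change 0.59, edgeR adjusted p = 0.00185). Bag3 lay closest to Spp1 at 0.0293, with a log2 fold change of 0.28 (edgeR adjusted p = 0.0427), and missed the threshold in each fit that left out a library (0.0602 to 0.154). The closest genes to Calb1, Calb2, Slc17a7, Slc17a6, Ldhb and Heg1 were Gm42875, Dpy19l3, Gm21955, Elovl1, Tbrg4 and Katnbl1, and none of these passed the threshold. The distances are a description over 6 libraries that share the contrast of genotypes.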

How the data were processed

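DRGs of the cervical, thoracic and lumbar levels of 3 control and 3 Tlx3cko samples gave total RNA, and libraries made with an NEBNext Ultra kit were read as paired ends on an Illumina HiSeq instrument. The authors deposited raw read counts per gene for each library, without normalization. The submitters' processing notes name STAR 2.5.2a and mm10. The counting program, the annotation and the use of strand are not given in the sources used here.

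Of 47937 rows, 208 are loci outside the annotation and were kept in the fit. Names and positions came from GENCODE M21 on GRCm38, the same build as mm10, and all 8 markers matched. Counts were analysed in R 4.3.3 with edgeR 4.0.16 (TMM, glmQLFit and glmQLFTest, group as the only term), over 20006 genes with at least 10 counts in total. The threshold was a Benjamini-Hochberg adjusted p under 0.05 over all of them. Standard errors and 95% intervals, which are not adjusted for multiple tests, were computed from the F statistic of each gene and its fold change. The study's methods give 3 mice of each genotype, which the labels do not tie to libraries. Levels per kilobase used the union of annotated exons. Profile distances used log2 of normalized counts plus 0.5.

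In simulated counts of this comparison with 200 changed genes among 19618 tested, 92% of log2 changes of 1 and 36% of log2 changes of 0.5 were recovered, and 4.48% of calls were unchanged genes. In these simulated counts recovery was thus limited for log2 changes of 0.5. They held 200 changed genes, whereas 851 genes passed in the data, and with fewer changed genes the adjusted threshold is stricter. The shares recovered need not hold for the data.

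The named genes are the 8 markers, the genes of each list that passed the threshold (up to 4 in each direction by p), relatives fixed by family or role, and the closest profile to each marker. The markers and lists were chosen with earlier results of these data known. DESeq2 1.42.0, limma-voom (limma 3.58.1), other factors and filters, a replicate block, a sex term and the omission of each library were tried as alternatives. Sex was read from Xist and Ddx3y, and since both females are controls, the sex term leaves control replicate 3 alone against the mutants. The values of some listed genes are not reported here.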

Additional observations from a re-analysis of the deposited data

How the results depend on the processing

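Of 112 alternative values of the 8 markers, 110 kept their direction and 104 also their side of the threshold. The 2 reversals were those of Slc17a6, to 0.0526 without control replicate 3 and 0.00825 without Tlx3cko replicate 2, within a range of -0.0923 to 0.0526 over the fits that left out 1 library. Over those fits Pvalb ranged from 0.497 to 0.721 and Calb1 from 0.407 to 0.611. The number of markers past the threshold ranged from 0 to 2, being 0 without control replicate 2 or control replicate 3 and 1 without Tlx3cko replicate 2 or Tlx3cko replicate 3. The 851 genes past the threshold became 1529 with no filter on low counts and 487 with a sex term (control replicate 3 alone against the mutants), and between 488 and 938 when a library was left out, with the lowest without Tlx3cko replicate 2 (512 without Tlx3cko replicate 3 and 530 without control replicate 2). The cause was not tested. DESeq2, limma-voom, and the other factors and filters changed no call of the 8 markers.

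The replicate numbers do not pair the samples: deviations from the group means correlated at -0.13, -0.01 and -0.12 for numbers 1, 2 and 3 over 13373 genes. With the replicate number as a block, 770 genes and 2 markers passed, Pvalb at 0.593 and Calb1 at 0.509, and the mean log2 ratios of Slc17a7 to Slc17a6 and of Ldhb to Ldha differed by 0.215 and 0.288 between paired libraries. Calb2 rests on at most 162 counts per library and had the largest standard error of the 8 markers, 0.17.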
